A study of Mus musculus with 6 samples.

Results

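Monocyte and resident macrophage markers were followed across the 3 groups of the study. The set held 10 of the 18193 genes named on the array. Adgre1 (older symbol Emr1), Csf1r, Cd14 and Lyz2 are pan-macrophage or myeloid genes, and Mmd is named for monocyte to macrophage differentiation. Mrc1, Cd163, Lyve1, F13a1 and Folr2 mark resident macrophages of vessel walls and other tissues. All probe sets whose array annotation gave one of these symbols as the only gene were taken. This gave 15 probe sets of 45101 on the array, and all 15 were among the 17909 that reached a mean signal intensity of 100 in at least 1 group. Signal intensity is the linear brightness of a probe set after scaling of each array, and levels of different probe sets are not comparable.

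RNA came from whole aortas of 3 groups of mice, all aged 32 to 34 weeks. These were ApoE-/- mice left untreated, ApoE-/- mice on vitamin E, and B6 (C57BL/6J, non-transgenic) controls. Their base chow contained fat and cholesterol and was made without added tocopherol acetate (vitamin E). ApoE-/- mice lack apolipoprotein E in every cell, are on the same B6 background and develop atherosclerosis. Vitamin E was supplied in the diet of the treated group only, at 2000 IU/kg diet for 7 months. Each group had 2 arrays (n = 2), described as biological replicates, and each array held the pooled RNA of 3 aortas. The spread between animals within a pool is therefore not seen. Labels of the untreated and B6 arrays describe an experiment with captopril, and those of the vitamin E arrays one with vitamin E. A difference in array handling and vitamin E treatment therefore cannot be told apart.

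Monocytes leave the blood, enter the intima of an atherosclerotic artery and become macrophages that take up lipoproteins. Their survival depends on Csf1r, the receptor for colony-stimulating factor 1, while Cd14 is the co-receptor that hands lipopolysaccharide to Toll-like receptor 4. A healthy aorta also holds resident macrophages, many of them in the adventitia, which carry the hyaluronan receptor Lyve1, the mannose receptor Mrc1 (CD206), the haemoglobin-haptoglobin scavenger receptor Cd163, folate receptor beta (Folr2) and coagulation factor XIII A chain (F13a1). In whole tissue, fewer cells of a type and less RNA per cell cannot be told apart.

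Promoter windows are shown for the 4 members with a single start in the RefSeq table (GRCm38.p6), so that the genes whose levels moved apart can be set beside each other by sequence. They were Lyz2 and Mmd, whose probe sets 1423547_at and 1435645_at gave the largest differences of untreated aortas from B6 among the members (0.78 and 1.22 on the log2 scale), and Mrc1 and Cd163, which stand for the resident macrophage genes. Each window is the 250 bases before the start. Of the 10 members, 6 matched the table, with 8 windows. Capitals mark matches on either strand to the purine-rich PU box GAGGAA or to the C/EBP pattern TTNNGNAA. Both letter patterns are short forms of motifs of the myeloid factors PU.1 (Spi1) and C/EBP.

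Lyz2, chr10:117282273-117282522, minus strand: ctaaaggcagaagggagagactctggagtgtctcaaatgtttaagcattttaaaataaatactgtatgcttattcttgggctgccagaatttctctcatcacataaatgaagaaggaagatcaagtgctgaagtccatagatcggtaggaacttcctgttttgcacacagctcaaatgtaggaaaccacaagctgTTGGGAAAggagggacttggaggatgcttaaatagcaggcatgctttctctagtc
Mmd, chr11:90249226-90249475, plus strand: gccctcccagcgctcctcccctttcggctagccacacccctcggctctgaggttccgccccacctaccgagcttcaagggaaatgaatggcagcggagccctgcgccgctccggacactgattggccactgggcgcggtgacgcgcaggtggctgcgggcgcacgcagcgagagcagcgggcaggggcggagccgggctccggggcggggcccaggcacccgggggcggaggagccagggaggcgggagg
Mrc1, chr2:14229164-14229413, plus strand: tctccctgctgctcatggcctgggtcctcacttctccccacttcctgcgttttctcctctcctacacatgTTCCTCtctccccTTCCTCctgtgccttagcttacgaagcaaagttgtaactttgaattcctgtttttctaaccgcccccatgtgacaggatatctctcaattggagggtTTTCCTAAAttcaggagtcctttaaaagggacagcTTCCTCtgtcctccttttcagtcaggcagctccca
Cd163, chr6:124304401-124304650, plus strand: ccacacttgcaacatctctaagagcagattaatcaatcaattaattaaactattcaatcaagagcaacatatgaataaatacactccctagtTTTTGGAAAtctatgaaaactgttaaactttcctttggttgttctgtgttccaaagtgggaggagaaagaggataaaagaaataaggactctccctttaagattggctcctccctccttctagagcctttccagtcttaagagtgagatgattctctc

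The Mrc1 window held 3 PU box matches and 2 overlapping C/EBP matches. The Lyz2 window held 0 PU box matches and 1 C/EBP match, the Cd163 window 0 and 2, which overlap, and the Mmd window 0 and 0. Over all 32851 windows of this length, 23.3% held the PU box and 36.8% the C/EBP pattern, so both letter patterns are common. The Mmd window also differed in base composition, with 25 CpG dinucleotides against a median of 6 over all windows, while Lyz2 had 1, Mrc1 3 and Cd163 0. A match is a description of letters and shows no binding.

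The 6 arrays had mean signal intensities of 305 to 319, and the 2 arrays of a group correlated at 0.991, 0.984 and 0.992 across probe sets in the untreated, vitamin E-treated and B6 groups. Apoe, the deleted gene, read 93.2 and 57.4 on the untreated arrays, 40.5 and 45.3 on the vitamin E arrays and 5209 and 5432 on the B6 arrays. The 3′/5′ ratio of the Gapdh controls, a measure of RNA degradation, was 1.03 and 1.06 on untreated, 1.15 and 1.24 on vitamin E and 1.35 and 1.34 on B6 arrays. That of the beta-actin controls ordered the groups differently, at 1.78 and 1.88, 1.64 and 1.64, and 2.01 and 2.06. Poly-A spike controls were 2.62 to 4.11 times as bright on B6 as on untreated arrays, and 2.21 to 3.32 times as bright as on vitamin E arrays. A difference in sample handling between B6 and ApoE-/- arrays and genotype therefore cannot be told apart either. The quality measures were not tested as a part of the differences below.

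Each probe set was tested with limma on log2 signal intensity, with Benjamini-Hochberg adjustment over all 17909 probe sets and a call at an adjusted p under 0.05. For untreated aortas against B6, 7 of the 15 member probe sets were called, where 40.8% of all probe sets tested were. Of these members 6 were higher and 1 lower, with 21.7% and 19.1% of all probe sets called in those directions. With vitamin E against untreated, 3 were called, all of them Mmd and all lower, where 15.5% of all probe sets were called, 8.52% higher and 6.99% lower. With vitamin E against B6, 9 were called, 5 higher and 4 lower, where 41.1% of all were called, 21.9% higher and 19.2% lower. The shares of member probe sets called were thus 46.7%, 20% and 60%, which stood for 6, 1 and 6 of the 10 genes. All 3 comparisons use the same 6 arrays, and each group serves in 2 of them.

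**Figure D1:**
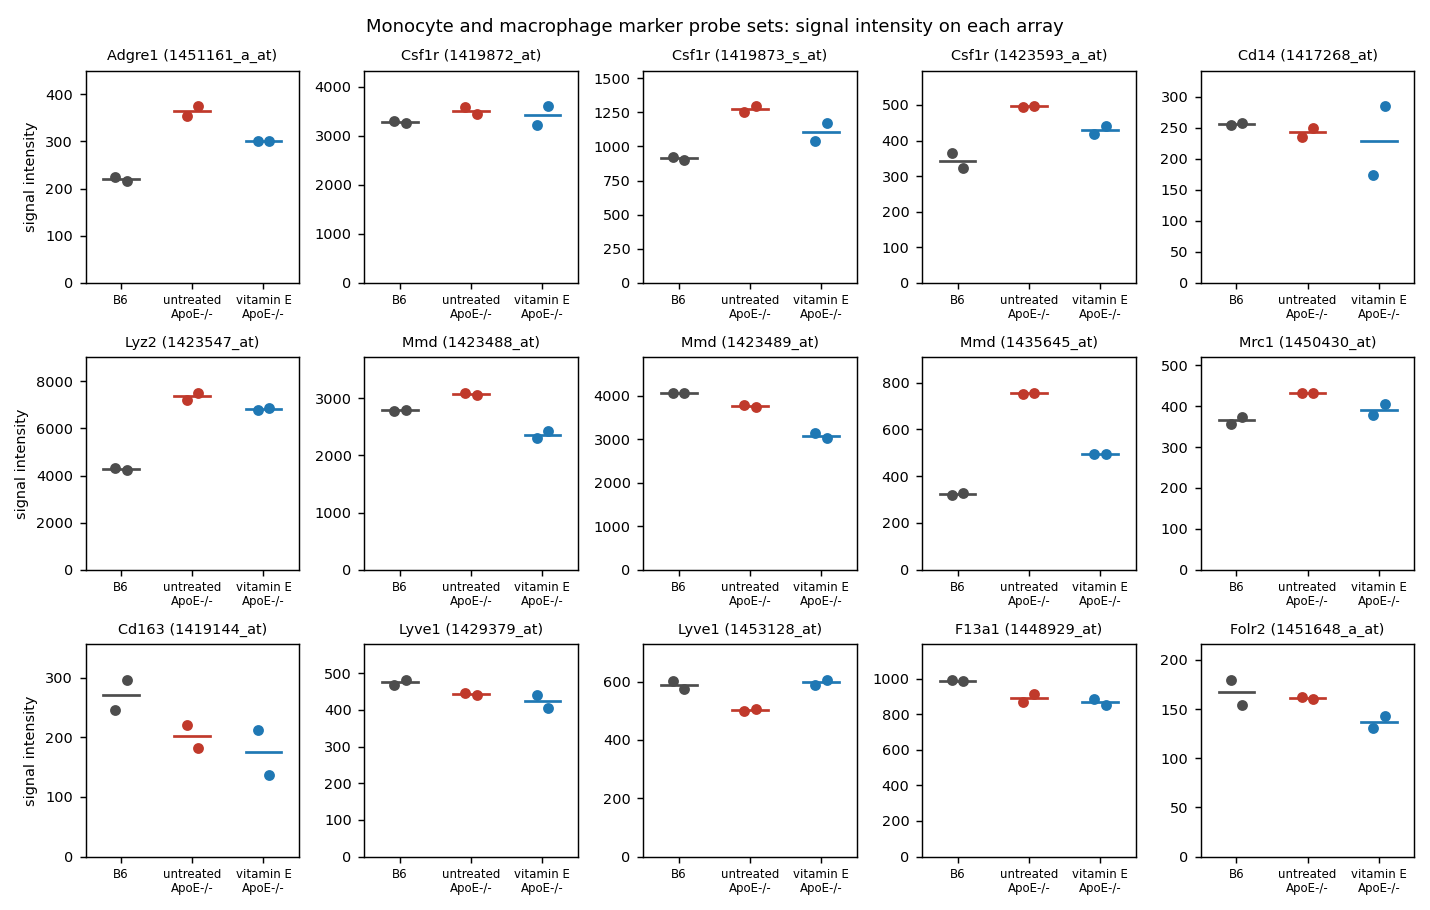
Signal intensity (y axis, linear, from 0) of the 15 member probe sets on each of the 6 arrays, with B6, untreated ApoE-/- and vitamin E-treated ApoE-/- on the x axis. Points are arrays and bars are means of n = 2. Lyz2, Adgre1, Mrc1, 2 of the 3 Csf1r probe sets and Mmd 1435645_at lie lowest in B6. Cd163, F13a1, Lyve1 1429379_at and Mmd 1423489_at lie highest there.

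Among the general macrophage and myeloid members and Mmd, several probe sets were higher in untreated aortas than in B6. They were those of Lyz2 and Adgre1, 2 of 3 Csf1r probe sets and 1 of 3 Mmd probe sets. Cd14 was not called. Lyz2, which encodes the M lysozyme of macrophages and granulocytes, was the brightest member. Its probe set 1423547_at read 7229 and 7513 in untreated ApoE-/- aortas, 6773 and 6871 in those given vitamin E, and 4317 and 4253 in B6 aortas. It rose 1.72-fold over B6 in untreated ApoE-/- aortas (95% interval 1.55 to 1.91, limma adjusted p = 1.22e-04). Both ApoE-/- groups lay well above B6 with no overlap, and this call held under each alternative fit of the same limma test.

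Adgre1, the gene of the F4/80 surface antigen of mouse macrophages, showed the same order. Probe set 1451161_a_at read 353 and 375 in untreated, 300 and 301 in vitamin E-treated, and 224 and 217 in B6 aortas. It rose 1.65-fold over B6 in untreated ApoE-/- aortas (95% interval 1.43 to 1.91, limma adjusted p = 8.07e-04). The 3 groups did not overlap.

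The 3 probe sets of Csf1r did not behave alike. Probe set 1419873_s_at read 1253 and 1297 in untreated, 1042 and 1171 in vitamin E-treated, and 923 and 901 in B6 aortas, and rose by 0.48 on the log2 scale over B6 in untreated ApoE-/- aortas (SE 0.07, limma adjusted p = 0.00205). Probe set 1423593_a_at read 494 and 497, 418 and 440, and 364 and 321, and rose by 0.54 (SE 0.09, limma adjusted p = 0.00293). The brightest, 1419872_at, read 3578 and 3449, 3219 and 3606, and 3294 and 3269, a log2 difference of 0.10 with a 95% interval of -0.07 to 0.27. The intervals of the first pair lie above that of 1419872_at, so the size of the Csf1r difference depends on which probe set is read.

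Cd14 did not pass the test in any comparison. Probe set 1417268_at read 236 and 250 in untreated, 173 and 285 in vitamin E-treated, and 254 and 257 in B6 aortas. The untreated arrays differed from B6 by -0.08 on the log2 scale, with a 95% interval of -0.57 to 0.41. The 2 vitamin E arrays lay on either side of all other arrays.

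Mmd, named for its rise during monocyte to macrophage differentiation, encodes a membrane protein of the progestin and adipoQ receptor family. Its 3 probe sets gave different answers. Probe set 1435645_at read 753 and 756 in untreated, 495 and 493 in vitamin E-treated, and 320 and 328 in B6 aortas. It rose 2.33-fold over B6 in untreated ApoE-/- aortas (95% interval 2.08 to 2.61, limma adjusted p = 2.46e-05), the largest difference of any member probe set. A heat map of immune cell markers in the study, drawn from these arrays, shows this probe set as a macrophage marker, so its direction is not independent evidence.

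The other Mmd probe sets were several times brighter and differed less between untreated ApoE-/- and B6. Probe set 1423488_at read 3096 and 3059 in untreated, 2297 and 2429 in vitamin E-treated, and 2786 and 2792 in B6 aortas. Probe set 1423489_at read 3785 and 3748, 3147 and 3024, and 4070 and 4060. Their log2 differences from B6 were 0.14 (95% interval 3.00e-04 to 0.28) and -0.11 (95% interval -0.25 to 0.03), with limma adjusted p = 0.0989 and 0.180, and neither interval overlapped that of 1435645_at. Under 4 alternatives 1423488_at was called higher (adjusted p 0.0176 to 0.0286), and under 3 alternatives 1423489_at was called lower (0.0342 to 0.0355). The annotation derives 1435645_at from another transcript record than this pair. Which transcript each probe set reads was not tested.

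Of the 6 probe sets of the resident macrophage members, Mrc1 was called higher and Lyve1 1453128_at lower in the untreated group, relative to B6. Mrc1 probe set 1450430_at read 433 and 432 in untreated, 378 and 405 in vitamin E-treated, and 357 and 374 in B6 aortas, a 1.18-fold difference between untreated ApoE-/- and B6 (95% interval 1.04 to 1.35, limma adjusted p = 0.0473). The untreated arrays lay above both other groups, but the call held under only 7 of 16 alternatives and was lost when any one untreated or B6 array was left out (adjusted p 0.114 to 0.200).

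Cd163 read lower on every ApoE-/- array than on either B6 array. Probe set 1419144_at read 221 and 182 in untreated, 213 and 137 in vitamin E-treated, and 246 and 296 in B6 aortas. The untreated arrays lay below both B6 arrays, with a log2 difference of -0.43 that did not pass the test (95% interval -0.94 to 0.08, limma adjusted p = 0.155). It was called lower when only these groups were fitted (adjusted p = 0.0440) and without either vitamin E array (0.0483 and 0.0452), which changes only the shared spread.

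The Lyve1 probe sets disagreed. Probe set 1453128_at read 499 and 506 in untreated, 589 and 607 in vitamin E-treated, and 601 and 575 in B6 aortas, and fell by 0.23 on the log2 scale in untreated ApoE-/- against B6 (SE 0.07, limma adjusted p = 0.0355). Without any one of the untreated or B6 arrays that adjusted p was 0.0896 to 0.174. Probe set 1429379_at read 445 and 441, 441 and 405, and 468 and 482, a difference of -0.10 (95% interval -0.28 to 0.09). Lyve1 is also made by lymphatic endothelium. Of 6 genes of that tissue on the array, 2 were under 100 on every array, among them its defining transcription factor Prox1. The other 4 had a median log2 difference of -0.24 between untreated ApoE-/- and B6, with 1 called lower beside 20.8% of all genes. After vitamin E against untreated their median was 0.14, with 0 called. Their list summed to 1171 to 1261 in untreated, 1252 to 1360 in vitamin E-treated and 1302 to 1318 in B6 aortas, and its part in the Lyve1 values was not tested.

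F13a1 and Folr2 were not called between untreated ApoE-/- and B6. F13a1 probe set 1448929_at read 867 and 915 in untreated, 886 and 852 in vitamin E-treated, and 995 and 985 in B6 aortas, a log2 difference of -0.15 (95% interval -0.30 to -0.0023, limma adjusted p = 0.0954), which median centring took to -0.20 and a call (adjusted p = 0.0438). Folr2 probe set 1451648_a_at was the dimmest member and read 162 and 160, 131 and 143, and 180 and 154. Its difference was -0.05, with a 95% interval of -0.36 to 0.27. The B6 arrays lay above the ApoE-/- arrays for F13a1, and the untreated and B6 arrays overlapped for Folr2.

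**Figure D2:**
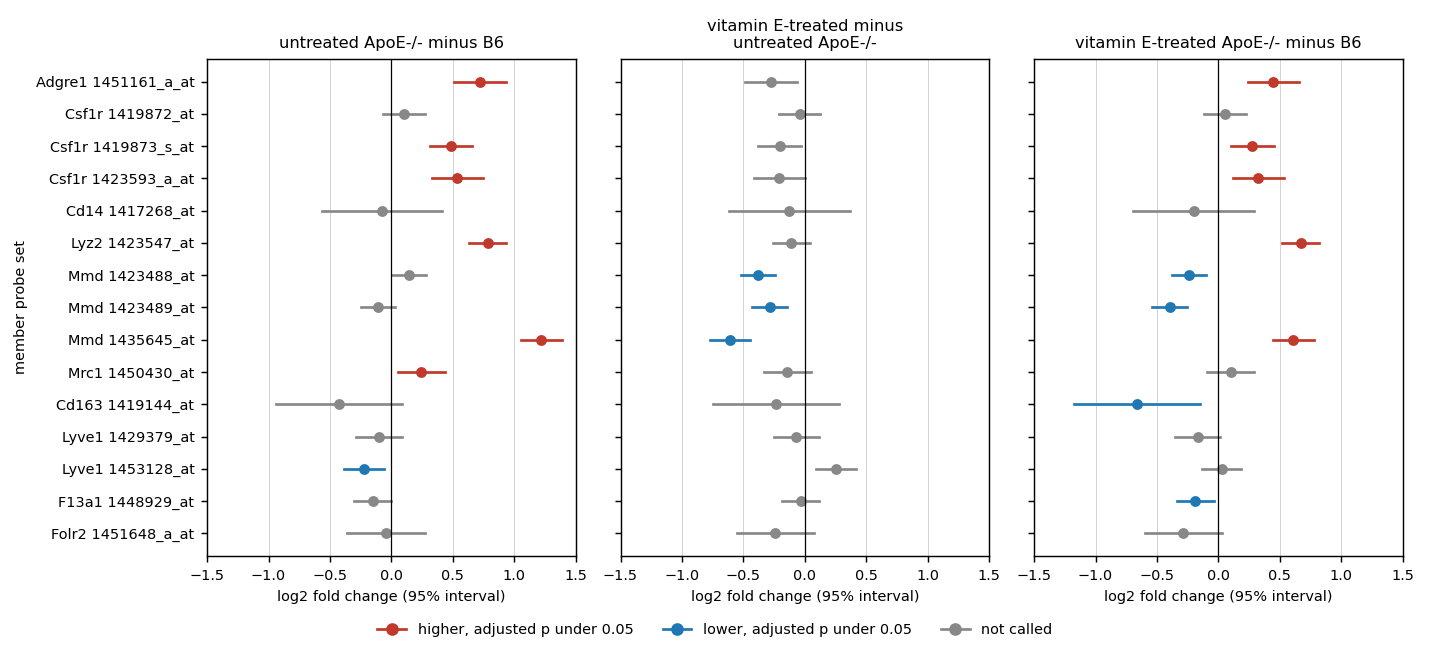
Log2 fold change (x axis) with its 95% interval for the 15 member probe sets in the 3 comparisons, from limma on 6 arrays. Red marks probe sets called higher, blue those called lower and grey those not called. Values of untreated ApoE-/- over B6 run from -0.43 for Cd163 to 1.22 for Mmd 1435645_at, and the 3 Mmd probe sets are the only ones called in the middle panel.

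Vitamin E-treated and untreated ApoE-/- aortas were compared next, to see which markers differed with treatment. The median log2 difference of the 15 member probe sets was -0.21, against 0.00 over all probe sets tested. Only the 3 Mmd probe sets passed the test, 3 of 15 lower where 6.99% of all probe sets were called lower. These are repeat readings of 1 of the 10 genes. With 1 probe set per gene, 1 of the 10 members was called higher and 1 lower, where 936 and 894 of 10646 genes were. The vitamin E arrays lay below both untreated arrays, with no overlap, for 10 of the 15 member probe sets, against 28.4% of all probe sets. With 2 arrays against 2, an exact two-sided permutation test of a single probe set cannot give a p below 0.333.

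Mmd was lower in vitamin E-treated aortas by all its probe sets. Which cells of the aorta gave this signal was not tested. Probe set 1435645_at fell by 0.61 on the log2 scale (SE 0.07, limma adjusted p = 0.00202), from 753 and 756 to 495 and 493, and this call held under each alternative fit of the same limma test. Probe set 1423488_at fell by 0.38 (SE 0.06, limma adjusted p = 0.00763) and 1423489_at by 0.29 (SE 0.06, limma adjusted p = 0.0202). Without either untreated array these last p-values were 0.0724 to 0.0745 and 0.139 to 0.145, with the differences hardly moved. Without either B6 array, which changes only the shared spread, that of 1423489_at was 0.0634 to 0.0638.

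The general macrophage members lay lower on the vitamin E arrays by amounts that did not pass the adjustment. Adgre1 differed by -0.28 on the log2 scale (95% interval -0.49 to -0.07, limma adjusted p = 0.0814). The Csf1r probe sets 1419873_s_at, 1423593_a_at and 1419872_at differed by -0.21, -0.21 and -0.04, with limma adjusted p = 0.106, 0.155 and 0.720, and quantile normalization turned the sign of the last. Lyz2 differed by -0.11 (95% interval -0.26 to 0.04). Cd14 differed by -0.13 with overlapping arrays, and 1 array decided this value: it was -0.49 (adjusted p = 0.0394) without vitamin E replicate 2 and 0.23 without vitamin E replicate 1.

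Among the resident macrophage members, none was called. Lyve1 probe set 1453128_at was the single member probe set with a higher level after vitamin E, by 0.25 on the log2 scale (95% interval 0.09 to 0.41), and its limma adjusted p of 0.0502 fell just outside the threshold. The other Lyve1 probe set differed by -0.07. Mrc1, Folr2 and Cd163 differed by -0.14, -0.24 and -0.24, and F13a1 by -0.04. Cd163 stood at -0.56 without vitamin E replicate 1 and 0.08 without vitamin E replicate 2, and F13a1 at 0.0026 without untreated replicate 2, so neither has a settled sign. Quantile normalization or median centring took Lyve1 1453128_at to an adjusted p of 0.0475 and 0.0485.

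Set against B6, vitamin E-treated aortas held the markers in an uneven way. Lyz2 was 1.59-fold higher (95% interval 1.43 to 1.77, limma adjusted p = 2.73e-04) and Adgre1 1.36-fold higher (95% interval 1.18 to 1.58, limma adjusted p = 0.00685). The Csf1r probe sets 1419873_s_at and 1423593_a_at were 0.28 and 0.33 higher on the log2 scale, with limma adjusted p = 0.0213 and 0.0230. Leaving out either B6 array for the first (adjusted p 0.0857 and 0.114), or vitamin E replicate 2 or B6 replicate 2 for the second (0.0670 and 0.139), ended these calls.

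Mmd pointed both ways against B6. Probe set 1435645_at was 0.61 higher on the log2 scale (limma adjusted p = 5.96e-04), at 495 and 493 against 320 and 328. Probe sets 1423488_at and 1423489_at fell by 0.24 and 0.40 in vitamin E-treated aortas against B6 (limma adjusted p = 0.0170 and 0.00198). Leaving out either B6 array ended the call of 1423488_at, with adjusted p 0.0972 and 0.0995.

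Cd163 and F13a1 were called lower than in B6, both close to the threshold. Cd163 fell by 0.66 on the log2 scale (95% interval -1.17 to -0.15, limma adjusted p = 0.0442), with no overlap between 213 and 137 and the B6 arrays at 246 and 296. Without vitamin E replicate 2 the difference was -0.34 (adjusted p = 0.161). Leaving out either untreated array or either B6 array also took the Cd163 p above the threshold (0.0576 to 0.225). F13a1 fell by 0.19 (limma adjusted p = 0.049953), and this call held under 4 of 16 alternatives, 1 of them with an array left out. Mrc1, Folr2, Cd14 and both Lyve1 probe sets were not called, at 0.10, -0.29, -0.20, -0.17 and 0.02. Without vitamin E replicate 2, Cd14 was -0.56 (adjusted p = 0.0110).

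Ordered by group mean, the levels fell into a few patterns. In 7 probe sets, those of Lyz2, Adgre1, Csf1r (all 3), Mrc1 and Mmd 1435645_at, the order was untreated ApoE-/-, vitamin E-treated ApoE-/-, B6. In 6 probe sets, those of Cd163, F13a1, Folr2, Cd14, Lyve1 1429379_at and Mmd 1423489_at, the order was B6, untreated ApoE-/-, vitamin E-treated ApoE-/-. Mmd 1423488_at ran untreated, B6, vitamin E-treated, and Lyve1 1453128_at ran vitamin E-treated, B6, untreated. Both neighbouring pairs in such an order passed the test only for Mmd 1435645_at.

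Other genes made by these cells were read from lists, with each gene represented by its brightest probe set. Some, such as the leukocyte gene Ptprc, are made by other leukocytes too. Of 20 tested genes of macrophages in general, none of them a member, 16 were higher and 0 lower in untreated aortas than in B6, with a median log2 difference of 0.55. Of all 10646 genes, 21.2% were called higher and 20.8% lower, with a median of 0.02. The complement genes C1qc and C1qb, made by macrophages, rose by 1.15 and 1.11 (limma adjusted p = 3.73e-05 and 0.00156). The complement C3a receptor C3ar1 rose by 1.45 (limma adjusted p = 0.00415), and the leukocyte tyrosine phosphatase Ptprc (CD45), the brightest of the list, by 0.28 (limma adjusted p = 0.0106). The lysosomal protein Laptm5 stood at a log2 difference of -0.0017, with 2714 and 2819 in untreated against 2773 and 2765 in B6. With any 1 array left out, 12 to 16 of the 20 were called higher.

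Between vitamin E-treated and untreated aortas the same list had 2 genes called higher and 5 lower, at a median of -0.14, where 8.18% of all genes were called higher and 7.65% lower. Ptprc and Laptm5 rose by 0.23 and 0.33, while C3ar1 fell by 0.99, the Fc receptor gamma chain Fcer1g by 0.48 and C1qc by 0.27 (limma adjusted p = 0.0430, 0.00539 and 0.0446). Thymocyte markers also summed higher with vitamin E, at 9078 to 9223 against 5033 to 6196 in untreated aortas. Their part in the rises of Ptprc and Laptm5 was not tested. The counts of the macrophage list were not stable. Without untreated replicate 1 they were 0 and 0, without untreated replicate 2 they were 0 and 1, and without vitamin E replicate 1 or either B6 array 2 were lower.

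Genes of circulating monocytes also lay higher in untreated ApoE-/- aortas, with a median of 0.45. Of 8 tested, 5 were higher and 0 lower than in B6, beside 21.2% and 20.8% of all genes. The fractalkine receptor Cx3cr1 rose by 1.19 (limma adjusted p = 0.00172), the membrane protein Ms4a4c by 0.98 and Plac8 by 0.87. Without either untreated array or either B6 array, 3 of the 8 were called higher. After vitamin E, 0 of the 8 were higher and 2 lower, beside 8.18% and 7.65% of all genes. These 2 were the extracellular matrix genes Vcan and Fn1, which fell by 0.59 and 0.34 (limma adjusted p = 0.0196 and 0.0111). Vcan and Fn1 are matrix components that vessel wall cells also make, and without either untreated array neither was called.

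Further genes of resident macrophages split in direction. Of 12 tested, 3 were higher and 4 lower in the untreated group, relative to B6, beside 21.2% and 20.8% of all genes. Their median was 0.09. Wfdc17 read 379 and 389 in untreated, 209 and 194 in vitamin E-treated, and 194 and 186 in B6 aortas, and rose by 1.01 (limma adjusted p = 2.61e-04). Igf1, a growth factor that other cells make too, stromal cells among them, fell by 0.80 (limma adjusted p = 1.08e-04). Fcna, Mgl2 and Clec10a were also called lower, by 0.77, 0.64 and 0.34. The chemokines Ccl8 and Pf4 rose by 0.48 and 0.45 (limma adjusted p = 0.0247 and 0.00317). The carbonyl reductase Cbr2, the brightest of the list, differed by 0.20 without passing the test. The count lower was 1 without B6 replicate 1 and 2 without B6 replicate 2 or untreated replicate 2.

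After vitamin E, 0 of these 12 genes were higher and 5 lower than in untreated ApoE-/- aortas, beside 8.18% and 7.65% of all genes. Wfdc17 fell by 0.93 (limma adjusted p = 0.00145), to levels near B6, and Ccl8 by 0.92 (limma adjusted p = 0.00548). Without either untreated array 2 of the 12 were called lower, and without either B6 array 3. Against B6, 0 were higher and 4 lower, with a median of -0.26, beside 21.1% and 21.7% of all genes, but without either B6 array that count was 1 and without vitamin E replicate 1 it was 2.

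**Figure D3:**
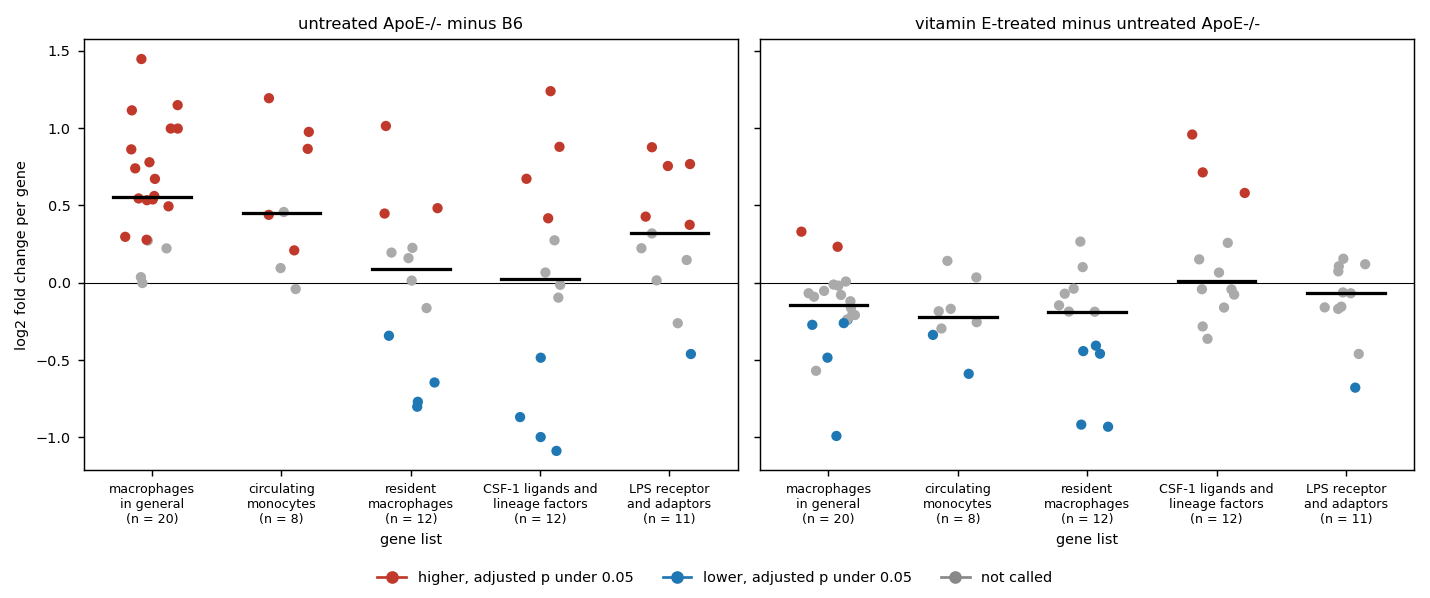
Log2 fold change (y axis) of each tested gene in 5 lists (x axis, n genes each), for untreated ApoE-/- minus B6 and for vitamin E-treated minus untreated ApoE-/-. Points are genes, coloured by the limma call, and black bars are medians. The general macrophage list has its median at 0.55 in the left panel and -0.14 in the right one, and the resident macrophage list at 0.09 and -0.19.

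Genes of lipid-laden foam cells in lesions were mixed in the untreated group against B6. Of 13 tested, 5 were higher and 2 lower, beside 21.2% and 20.8% of all genes. The median was 0.0050, with differences from -0.60 to 2.44 on the log2 scale. Trem2, another gene of the list, was under 20 on every array. Gpnmb and Mmp12, given next, lay highest in untreated aortas and do not stand for the whole list. Gpnmb, a glycoprotein of lipid-loaded macrophages, read 509 and 517 in untreated, 402 and 421 in vitamin E-treated, and 174 and 192 in B6 aortas, and rose by 1.49 (limma adjusted p = 3.12e-05). The macrophage elastase Mmp12 read 118 and 99.4 in untreated and 58.5 and 56.7 in vitamin E-treated aortas, and was under the floor of 20 on both B6 arrays. Of all genes, 8.18% were called higher and 7.65% lower with vitamin E against untreated. After vitamin E, 0 of the 13 were higher and 2 lower, with Mmp12 falling by 0.91 (limma adjusted p = 0.0246), but without either untreated array none was called lower.

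The ligands and lineage transcription factors around Csf1r did not move one way. Of 12 tested, 4 were higher and 4 lower in the untreated group, relative to B6, beside 21.2% and 20.8% of all genes. Spi1, which encodes PU.1, a factor that drives Csf1r and other myeloid genes, read 221 and 227 in untreated, 201 and 235 in vitamin E-treated, and 98.8 and 90.9 in B6 aortas, a rise of 1.24 (limma adjusted p = 3.80e-04). Cebpa rose by 0.42 (limma adjusted p = 0.00545), and Irf8 and Ikzf1 rose by 0.88 and 0.67. Zeb2 and Nr4a1, transcription factors also active in stromal and endothelial cells, fell by 1.09 and 0.87. Klf4 and Maf were also called lower, by 0.997 and 0.48. Which cells gave these signals was not tested, for the genes that rose, Cebpa among them, as for those that fell. After vitamin E, 3 of the 12 were higher and 0 lower, beside 8.18% and 7.65% of all genes. Among the 3 were Nr4a1 (0.96) and Runx1 (0.71), with Spi1 at -0.04. Csf1, one of the 2 ligands of Csf1r, differed by 0.07 between untreated ApoE-/- and B6 and did not pass the test.

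The lipopolysaccharide receptor genes around Cd14 rose in part although Cd14 itself did not. Of 11 tested, 5 were higher and 1 lower in the untreated group, relative to B6, beside 21.2% and 20.8% of all genes. Ly96 (MD-2), the partner of Toll-like receptor 4, rose by 0.77, and the related pair Cd180 and Ly86 by 0.88 and 0.37 (limma adjusted p = 0.00757, 0.00932 and 0.0116). Lbp, the lipopolysaccharide binding protein, rose by 0.43 and fell by 0.68 after vitamin E (limma adjusted p = 0.0203 and 0.00923). The 1 gene called lower against B6 was the adaptor Myd88, which fell by 0.46 (limma adjusted p = 0.00499). Toll-like receptor 4 itself (Tlr4) averaged under 100 in every group and was not tested. It read 82.9 and 89.9 in untreated and 108 and 87.9 in B6 aortas. Without untreated replicate 2 none of the 11 was called higher, and without untreated replicate 1 or either B6 array 2 or 3 were.

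Close relatives of the members were checked for shared signal. Lyz1, nearly identical in sequence to Lyz2, is read by 2 bright probe sets whose names (ending x_at) mark possible cross-hybridization. One, 1436996_x_at, read 7614 and 8178 in untreated, 6822 and 7282 in vitamin E-treated, and 6900 and 6765 in B6 aortas, a log2 difference of 0.21 that did not pass the test (limma adjusted p = 0.0579). The other, 1439426_x_at, differed by 0.09, and the third Lyz1 probe set was under 100 on every array. How much of the signal of 1423547_at is Lyz2 alone was not tested.

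The Mmd relative Mmd2 ran opposite to Mmd 1435645_at. It read 84.1 and 112 in untreated, 243 and 255 in vitamin E-treated, and 1270 and 1219 in B6 aortas, and fell by 3.68 in untreated ApoE-/- against B6 (limma adjusted p = 3.54e-06). Mrc2, the collagen-binding relative of Mrc1, read 192 and 221, 114 and 139, and 94.2 and 110, and rose by 1.02 (limma adjusted p = 0.00247). In untreated ApoE-/- against B6, 2 of the 14 tested relatives were higher and 5 lower, beside 21.2% and 20.8% of all genes.

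Markers of other cells and tissues moved with the groups, and their part in the member differences was not tested. Of all genes, 21.2% were called higher and 20.8% lower in untreated against B6. With vitamin E against untreated these shares were 8.18% and 7.65%. Thymocyte markers were higher in both ApoE-/- groups: all 7 tested rose against B6, and the summed signal of the list was 5033 to 6196 in untreated, 9078 to 9223 in vitamin E-treated, and 891 to 925 in B6 aortas. Hepatocyte markers were lower, 8 of 9 in untreated ApoE-/- against B6, with summed signal of 5054 to 5083, 5300 to 5562, and 27152 to 27352. Alveolar type II cell markers summed to 2402 to 2474, 509 to 520, and 4422 to 4483, and all 5 were lower after vitamin E. Adipocyte markers summed to 11888 to 11932, 10695 to 11145, and 17139 to 17735. Kupffer cells of the liver and alveolar macrophages of the lung express several members too. The Kupffer and liver sinusoid genes Clec4f, Clec4g and Oit3 were under 100 on every array, as were 4 of the 6 genes of that list on the array, but the macrophage-secreted protein Cd5l read 746 and 799, 762 and 816, and 237 and 233. The alveolar macrophage receptor Marco read 603 and 541, 861 and 922, and 804 and 824.

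Lists of other blood cells that share members were read as well, and their part was not tested. Of 10 neutrophil genes on the array 7 were under 100 on every array. Their summed signal was 2647 to 3146 in untreated, 2338 to 2871 in vitamin E-treated, and 2665 to 2685 in B6 aortas, with overlap. Platelets, which hold F13a1, had 4 of 7 genes under 100 on every array and a sum of 513 to 566, 535 to 557, and 436 to 471, which lay above B6 on all 4 ApoE-/- arrays. The summed macrophage list was 22300 to 22369, 21391 to 21963, and 15612 to 15932 by group in that order, and smooth muscle markers 17292 to 17894, 15510 to 16583, and 18372 to 18951.

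**Figure D4:**
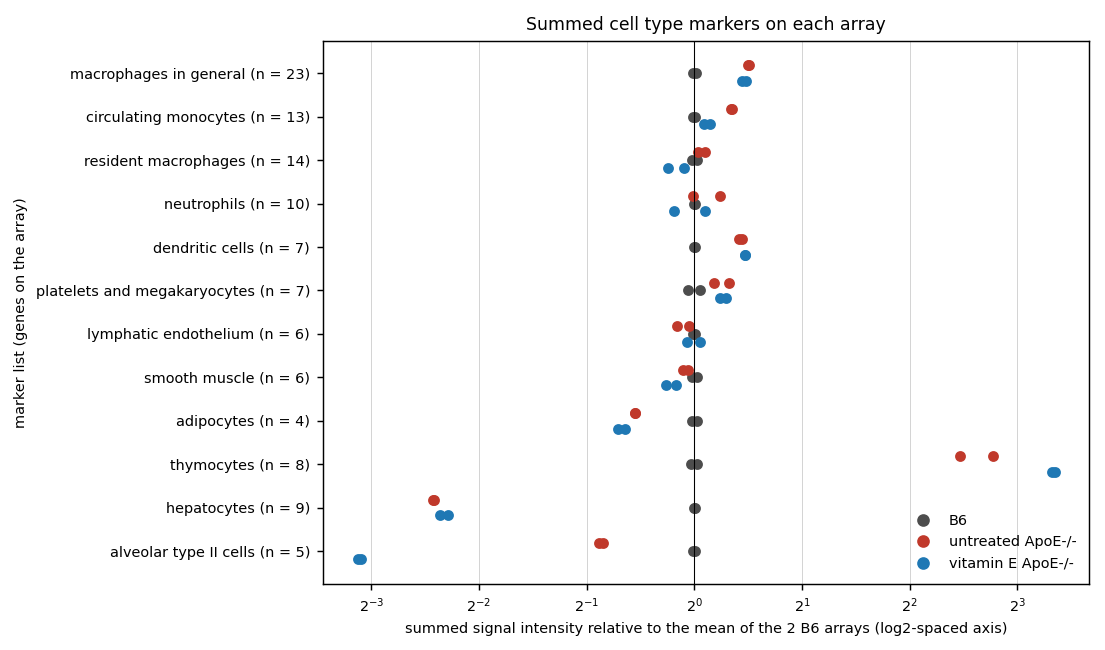
Summed signal intensity of 12 marker lists on each array, divided by the mean of the 2 B6 arrays (x axis, spaced by log2), with 1 row per list and n genes on the array. Points are arrays. The macrophage list lies above B6 on all 4 ApoE-/- arrays. The resident macrophage list sums to 11677 to 12222 in untreated, 9633 to 10670.5 in vitamin E-treated and 11229 to 11627 in B6 aortas, where Cbr2 alone reads 5472 and 5283, while thymocyte, hepatocyte and alveolar type II lists stand far from B6.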

How the data were processed

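Aortic RNA from 6 arrays (Affymetrix MG430 2.0) in 3 groups was analysed. The deposited values are linear signal intensities that the authors computed with GCOS and, per their methods, scaled to a target of 200 on each array. No genome alignment is involved. Arrays carry no read depth, so their number limits the precision. Probe sets were named through the platform annotation: 34945 had 1 gene symbol, 932 several and 9160 none, besides 64 controls, and 34741 matched RefSeq (GRCm38.p6) by Entrez ID. Values under 20 were set to 20 and taken to log2, and probe sets averaging 100 or more in any group were kept. A mean for each group was fitted to all 6 arrays using limma 3.58.1 under R 4.3.3 (eBayes, prior variance following intensity; degrees of freedom 3 residual, 4.46 prior), with Benjamini-Hochberg adjustment over the 17909 probe sets. Fold changes are ratios of geometric means. P-values measure the spread between pools, and whether pools of a group share animals was not given in the sources used here. On simulated data for untreated ApoE-/- against B6, limma recovered 97 of 100 probe sets changed 2-fold and 99 of 100 changed 4-fold, with 14 unchanged ones called. The simulated errors were independent and followed limma's own estimate of the spread. The simulation therefore checks the fit, and does not show the power for the smaller differences of most members.

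The members and lists were chosen with earlier results of these data known. Named genes were all members and, from each list, the 2 brightest tested genes, and the 2 that changed most between untreated and B6 aortas and between aortas with and without vitamin E. Csf1, Lyz1, defining markers of other cell types and some further genes of the lists were named besides, after their values were seen. A further rule, naming the genes most alike a member whose group means span at least 1 on the log2 scale, was applied to each gene's brightest probe set and named none. The replicate numbers did not pair the arrays: deviations from group means of equally numbered arrays correlated at 0.055, 0.054 and -0.098. Alternatives were other normalization, floors, filters and variance models, single arrays left out, the replicate number as a block, 1 probe set per gene, and the methods' t-test.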

Additional observations from a re-analysis of the deposited data

How the results depend on the processing

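The directions of all called member differences held under every alternative run, and the counts moved as follows, in the order untreated against B6, vitamin E against untreated, and vitamin E against B6. The limma counts were 7305, 2777 and 7368 probe sets, and 7, 3 and 9 member probe sets. Without a signal filter they were 4494, 949 and 4464, and 5 members in the last comparison. Without the intensity trend 6775 probe sets and 5 members were called in the last comparison. Fitting only the groups compared gave 1700 in the second. With 1 probe set per gene, 4610, 1830 and 4754 of 10646 were called, with 4, 2 and 5 of the 10 members. Leaving out 1 array gave 4326 to 8777, 817 to 3506 and 4332 to 7470 probe sets, and 5 to 10, 1 to 5 and 4 to 9 members. The methods' t-test at their threshold (p of 0.01 and a fold of 2) called 768, 179 and 583 probe sets on log2 values and 772, 176 and 585 on linear values, with 1, 0 and 0 members in both. After Benjamini-Hochberg adjustment that test called 2156, 0 and 67 on log2 values and 2166, 0 and 76 on linear values, with 0 members in both comparisons that involve vitamin E. At an unadjusted p under 0.05 the test on log2 values gave 3551 and 5802 of 17909 probe sets in these comparisons, and 6 of 15 members in each. Limma at that cut gave 5660 and 9000 probe sets, and 7 and 9 of 15 members.

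With the replicate number as a block (the numbers do not pair the arrays), 6887, 2185 and 6991 probe sets and 5, 3 and 8 members were called. Centring each array on its median moved no median of all probe sets by over 0.1 on the log2 scale. Calls of Mmd 1435645_at, Lyz2 and Adgre1 named in the text held under every limma alternative, while those of Mrc1, Cd163, F13a1, Lyve1, Mmd 1423488_at and Csf1r against B6 after vitamin E did not, nor that of Mmd 1423489_at after vitamin E against untreated. The causes of these changes were not tested. With 2 pooled arrays per group, differences of small size could not be detected in probe sets whose replicate arrays differed widely. Among these were Cd14 and Cd163, whose 95% intervals span about 1 on the log2 scale.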
